A study of Sus scrofa with 6 samples.

Results

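NF-kB is a family of dimeric transcription factors that drives inflammatory genes, and 5 of its components were taken as a set by name. RELA (p65) and NFKB1 (p105, processed to p50) are DNA-binding subunits, NFKBIA (IkB-alpha) is the inhibitor that holds the dimer in the cytoplasm, and TNFAIP3 (A20) and its partner TNIP1 (ABIN-1) restrain the ubiquitin-dependent steps upstream. Members were all non-control probe sets of the porcine array to which the platform annotation gives exactly 1 gene symbol from these 5. This found 3 of the 5 genes, among 6765 genes named in this way, in 5 of 23999 probe sets: 1 for NFKBIA, 3 for TNIP1 and 1 for NFKB1. The annotation used here gave no probe set TNFAIP3 or RELA as its only symbol, and neither is analysed here.

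Aortic valve leaflets of adult female pigs had been treated with collagenase to take off the endothelium, kept overnight in DMEM with serum and then placed under cyclic pressure at 1 Hz for 24 h. In the normotensive group pressure cycled between 0 and 80 mmHg, and in the hypertensive group between 0 and 120 mmHg, with 3 samples each, and both groups shared all other steps. The comparison asks how the higher pressure changes transcript levels in the leaflet. Per the labels they were biological replicates, with no word on whether different animals gave them, so a p-value here reflects only sample-to-sample spread, which may be technical.

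In resting cells IkB-alpha covers the nuclear localisation signal of the NF-kB dimer. Signals from cytokine and Toll-like receptors activate the IkB kinase complex, IkB-alpha is phosphorylated and degraded, and the freed dimer enters the nucleus. NFKBIA, TNFAIP3 and TNIP1 are themselves NF-kB target genes, so their transcripts are commonly read as a sign of recent NF-kB activity, whereas the activity of the subunits is set largely by location and modification of the protein. A transcript array measures none of those protein steps.

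The arrays had been scaled to a common level, with medians of 88.1 to 99.2. Over the probe sets kept, normotensive arrays correlated at 0.952 to 0.978 with each other. The hypertensive arrays differed among themselves: their correlation with the normotensive arrays was 0.817, 0.895 and 0.950 on average for replicates 1, 3 and 2, so replicate 1 lay farthest from the normotensive group and replicate 2 nearest to it. Markers of interstitial cells were present: of 11 listed genes 9 had a probe set, all 9 passed the filter, and vimentin (VIM) had a mean signal of 23586 under normotensive pressure. Their summed signal was 83885 to 85135 on the normotensive and 59943 to 74342 on the hypertensive arrays, and 8 of the 9 had lower means at hypertensive pressure. Of 10 endothelial markers 5 passed the filter, VWF, KDR, CLDN5 and TIE1 lay below the filter level on every array, and the summed signal was 2493 to 3060 and 2050 to 3927. Of the 5 that passed, PECAM1, ENG, TEK and ERG had log2 differences of -0.17, -0.46, -0.37 and -0.64, and SELP (P-selectin) had one of 2.76. CDH5, the endothelial cadherin, did not pass the filter and read 12.3 to 40.5 on the normotensive and 68.4 to 115.3 on the hypertensive arrays. Of 8 leukocyte markers with a probe set 6 passed, and ITGAM and CD3E lay below the level on every array. The sum was 1908 to 3529 on the normotensive and 874 to 2871 on the hypertensive arrays. Higher means were found in 5 of the 8, ITGAM and CD3E among them. Of the 6 that passed, PTPRC, CD163 and AIF1 had log2 differences of -1.33, -1.12 and -0.80. Those of CD14, CORO1A and TYROBP were 0.86, 0.79 and 0.06. The part of these shifts in the results that follow was not tested. In a whole leaflet, fewer cells of a type and less RNA per cell cannot be told apart.

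NFKBIA had a higher signal at hypertensive pressure on every array. Its signal, in the arbitrary units of the array, was 2531, 2265 and 2395 in normotensive replicates 1 to 3 and 17111, 8643 and 8687 in hypertensive replicates 1 to 3. The normotensive arrays thus lay close together, the groups were far apart, and hypertensive replicate 1 was the highest array while replicates 2 and 3 were nearly equal. The geometric mean was 10871 against 2394, a ratio of 4.54. On the log2 scale the difference, hypertensive minus normotensive, was 2.18 (SE 0.28, n = 3 arrays per group), with a 95% interval of 1.53 to 2.84, or 2.89-fold to 7.14-fold, that is not adjusted for the number of probe sets. By limma the unadjusted p was 5.06e-05, the 5th smallest of 14399 probe sets, and the Benjamini-Hochberg adjusted p was 0.115, so NFKBIA did not pass the threshold of 0.05. The fold was between 3.62 and 5.09 when any 1 array was left out, lowest without hypertensive replicate 1.

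TNIP1 had a higher signal at hypertensive pressure on its brightest probe set. That probe set read 581, 582 and 328 in the normotensive samples and 3270, 1335 and 960 in the hypertensive ones. The groups did not overlap, normotensive replicate 3 was low in its group, and hypertensive replicate 1 was again the highest array. The geometric mean was 1612 against 480, a ratio of 3.36, and the log2 difference was 1.75 (SE 0.48, 95% interval 0.65 to 2.84, or 1.57-fold to 7.17-fold). By limma the unadjusted p was 0.00612 and the adjusted p 0.238, so TNIP1 did not pass either. Its fold was 2.36 without hypertensive replicate 1 and 4.35 without replicate 3, and 2.06 when arrays were weighted by their fit.

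**Figure D1:**
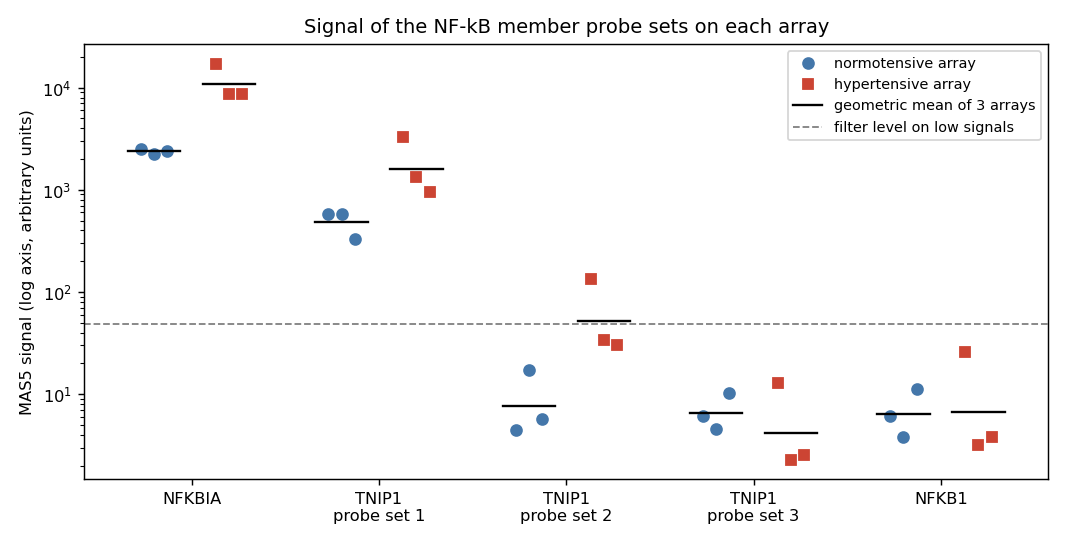
MAS5 signal (log axis) of the 5 probe sets of NFKBIA, TNIP1 and NFKB1 on each of 6 arrays, with circles for normotensive and squares for hypertensive arrays, bars for the geometric mean of 3 arrays and a dashed line at the filter level of 48.5. NFKBIA and TNIP1 probe set 1 lie above the line on all 6 arrays with groups that do not overlap, and NFKB1 lies below it on all 6.

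The other TNIP1 probe sets had a mean below the filter level of 48.5, the signal under which probe sets were left out of the test. The first of them read 4.46, 17.1 and 5.71 in the normotensive samples and 133, 34.0 and 30.3 in the hypertensive ones. Its groups did not overlap either, and only hypertensive replicate 1 lay above the filter level, so no fold is given. The last read between 4.55 and 10.2 on the normotensive and between 2.28 and 12.7 on the hypertensive arrays, with overlapping groups. The account of TNIP1 therefore rests on 1 probe set.

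NFKB1, the only subunit gene with a probe set of exactly 1 symbol, gave no usable level. Its probe set read 6.08, 3.82 and 11.3 in the normotensive samples and 25.7, 3.16 and 3.76 in the hypertensive ones. All 6 values lay below the filter level and the groups overlapped, with hypertensive replicate 1 the highest array. A fit without the filter gave NFKB1 a log2 difference of 0.07 with an SE of 0.99 (limma, adjusted p = 0.981), an error far larger than the difference. With no level for NFKB1 and no probe set for RELA alone, the contrast of inhibitors with subunits could not be made: 2 inhibitors and 0 subunits were measured above the filter. These data do not show whether the subunit transcripts differed between pressures.

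Of the 2 member probe sets that passed the filter, both had non-overlapping groups with higher values at hypertensive pressure, against 10.4% of all 14399 probe sets tested. By the limma test 0 of the 2 passed an adjusted p of 0.05, as did 0.00% of all probe sets, although 2 of the 2 had an unadjusted p under 0.05 with a higher mean, against 7.39% of all. The 2 inhibitors were not independent readings, since both came from the same 6 samples. Relative to its own normotensive mean, NFKBIA stood at 2.84, 1.85 and 1.86 on the log2 scale on hypertensive replicates 1, 2 and 3, and TNIP1 at 2.77, 1.47 and 1.00. The difference between these deviations, NFKBIA minus TNIP1, was 0.07, 0.38 and 0.86 under hypertensive and -0.19, -0.36 and 0.55 under normotensive pressure. Those ranges overlapped, so the shifts of the 2 inhibitors could not be told apart by size. The normotensive SD on the log2 scale was 0.08 for NFKBIA and 0.48 for TNIP1, and the hypertensive SD was 0.57 and 0.92.

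Of the 6 omissions of 1 array, only that of hypertensive replicate 2 brought the inhibitors past the threshold; without replicate 1 the limma adjusted p was 0.0765 for NFKBIA and 0.391 for TNIP1. Without replicate 2 NFKBIA had a log2 difference of 2.35 (SE 0.28, limma adjusted p = 0.00330) and TNIP1 one of 1.88 (SE 0.51, adjusted p = 0.0349), while 10.3% of all probe sets passed with higher values. The unadjusted p of NFKBIA was nearly as before, at 3.78e-05, and it ranked 164th in place of 5th. NFKBIA itself was not low on that array, at 1.85 against 1.86 on replicate 3. Without replicate 2 of both groups, an alternative chosen after the data were seen, NFKBIA passed (limma adjusted p = 0.0133) and TNIP1 did not (0.0643). In that setting 863 of all 14399 probe sets passed with higher values.

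**Figure D2:**
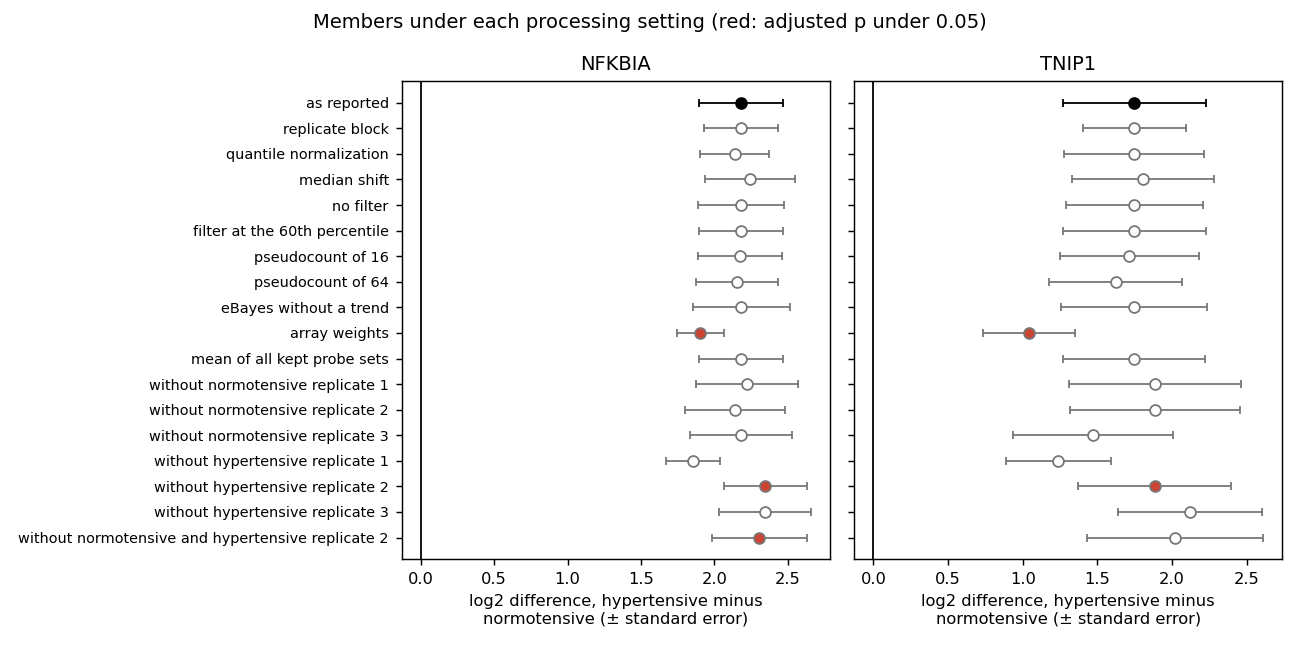
Log2 difference, hypertensive minus normotensive, of NFKBIA and TNIP1 (points) with the standard error of the fit (bars) under each processing setting. Every value is above 0, between 1.86 and 2.35 for NFKBIA and between 1.04 and 2.12 for TNIP1, and red points mark an adjusted p under 0.05.

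The rest of the pathway was read from lists of 94 genes by role, chosen with earlier results of these data known. Of these 52 had a probe set and 42 passed the filter. After adjustment 0 of the 42 passed the limma test. Before adjustment 18 lay under 0.05, all 18 of them higher at hypertensive pressure, against 6.85% of all genes. Higher means were found in 37 of the 42, against 45.0% of all 5271 genes, and the median log2 difference was 0.62 against -0.07 for all genes. The groups did not overlap in 23 genes that were higher and 2 that were lower, against 9.28% and 12.6% of all genes. Without hypertensive replicate 2, 36 of 42 had higher means, against 44.0% of all genes, and 16 passed, all higher, against 10.3%.

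**Figure D3:**
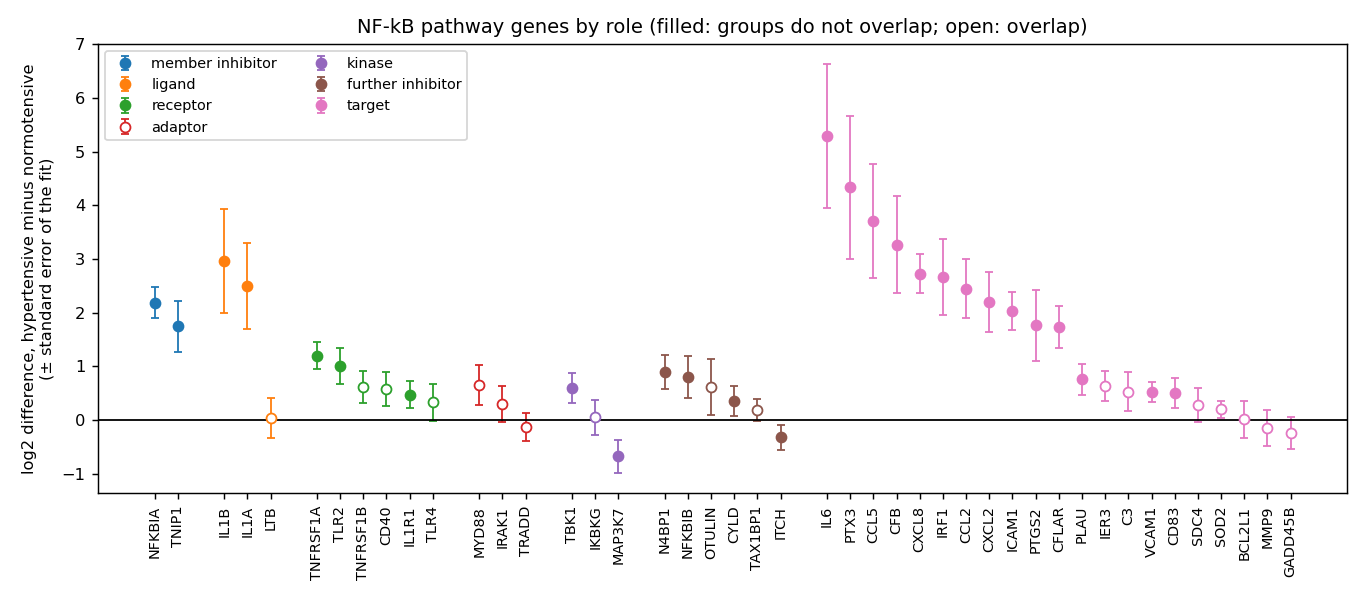
Log2 difference, hypertensive minus normotensive, of the 2 measured inhibitors and 42 further NF-kB pathway genes (points, grouped by role) with the standard error of the fit, filled where the groups do not overlap. All 3 ligands, all 6 receptors and 19 of 21 targets lie above 0, as do 2 of 3 adaptors, 2 of 3 kinases and 5 of 6 further inhibitors. Of all genes, 45.0% had higher means. Adaptors, kinases and further inhibitors lie between -0.68 and 0.89.

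Among ligands that activate the pathway, 3 of 8 were measured. The interleukin-1 genes IL1A and IL1B were at 5.66 and 7.80 times the normotensive signal, with log2 differences of 2.50 (SE 0.80) and 2.96 (SE 0.96) and limma adjusted p of 0.259 and 0.262. IL1A read 100, 132 and 120 in the normotensive samples and 2831, 226 and 450 in the hypertensive ones, so its size rested on hypertensive replicate 1: the fold was 2.73 without it and 9.67 without replicate 2. That of IL1B was 3.14 without replicate 1, 12.8 without replicate 2 and 11.8 without replicate 3. LTB, a lymphotoxin subunit, was near the filter level, at a log2 difference of 0.04 (SE 0.37).

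All 6 measured receptors of 10 listed had higher means, against 45.0% of all genes, with a median log2 difference of 0.60. The groups did not overlap in 3, all higher, against 9.28% of all genes. TNFRSF1A, the main receptor for TNF, read 2339, 1836 and 2168 in the normotensive samples and 6186, 3757 and 4819 in the hypertensive ones. Its groups were well apart, with a log2 difference of 1.20 (SE 0.25) and a limma adjusted p of 0.199. TLR2, a receptor for bacterial lipoproteins, was at 2.01 times the normotensive signal, and TNFRSF1B, the second TNF receptor, at 1.54 times with overlapping groups. IL1R1, the signalling receptor of interleukin-1, was at 1.39 times on its brightest probe set, where its groups did not overlap. The mean of its probe sets had the opposite sign, at -0.10 on the log2 scale, with overlapping groups. Both receptor counts above thus depend on the probe set taken for IL1R1.

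Adaptors and kinases between receptor and inhibitor were measured in few cases, 3 of 17 and 3 of 8. The adaptor MYD88, which serves Toll-like and interleukin-1 receptors, had a log2 difference of 0.65 (SE 0.38). It read 41.7, 79.8 and 51.0 in normotensive replicates 1 to 3, so replicate 1 lay below the filter level of 48.5. The kinase IRAK1, which acts next to MYD88, was at 0.30 (SE 0.33), and TRADD, an adaptor of TNF receptors, at -0.13 (SE 0.26). All 3 had overlapping groups. IKBKG, the regulatory subunit of the IkB kinase complex, was at 0.05 (SE 0.32), a value that turned to -0.06 with the mean of its probe sets. TBK1, a kinase related to that complex, was at 1.51 times the normotensive signal, with groups that did not overlap except after a median shift. MAP3K7 (TAK1), which activates the IkB kinases, was at 0.626 times on its brightest probe set, where its groups did not overlap. That is a log2 difference of -0.68, against -0.40 with the mean of its probe sets. With that mean, after quantile normalization and after a median shift, its groups overlapped. By limma the adjusted p of these 6 genes lay between 0.304 and 0.945.

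Each of the further inhibitors measured had a smaller log2 difference than NFKBIA and TNIP1. These gaps were not tested, and the members were chosen with earlier results of these data known. The 95% interval of TNIP1, 0.65 to 2.84, covers the values of N4BP1 and NFKBIB given below. Of 15 listed 6 were measured, and 5 had higher means, against 45.0% of all genes, with a median log2 difference of 0.49. N4BP1, a ubiquitin-binding inhibitor, had a log2 difference of 0.89 (SE 0.32), or 1.86-fold. NFKBIB (IkB-beta), a relative of IkB-alpha, read 315, 288 and 259 in the normotensive samples and 900, 355 and 384 in the hypertensive ones, a log2 difference of 0.79 (SE 0.39). The groups of NFKBIB did not overlap, and its fold was 1.29 without hypertensive replicate 1. CYLD, a deubiquitinase that acts on upstream adaptors, was at 1.28 times, and ITCH, a ubiquitin ligase that works with A20, at 0.800 times. The limma adjusted p of these 4 genes lay between 0.269 and 0.497. None of the 3 further subunits listed, NFKB2, REL and RELB, had a probe set with exactly 1 symbol in the annotation used here.

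Most measured target genes had higher signals at hypertensive pressure. Of 33 listed 21 were measured, and 0 passed the adjusted limma test. Before adjustment 13 had a limma p under 0.05, all higher, against 6.85% of all genes. Higher means were found in 19, against 45.0% of all genes, and the groups did not overlap in 14, all higher, against 9.28% of all genes, with a median log2 difference of 1.73. Of the 21, CFB (complement factor B) had no normotensive signal above the filter level, and the median was the same with CFB at its lower bound. CCL5, named after its values were seen, had a normotensive mean of 30.5, also below that level. CFB and CCL5 passed the filter through their hypertensive signals, so being kept favoured a higher call. Both are among the 14 and the 13, and so in the totals of all pathway genes. Counts without them were not made. The neutrophil chemokine CXCL8 read 1439, 1466 and 1538 in the normotensive samples and 16907, 5685 and 9751 in the hypertensive ones. As for NFKBIA, its normotensive arrays lay close together and hypertensive replicate 1 was highest, with a log2 difference of 2.72 (SE 0.36) and a limma adjusted p of 0.115. ICAM1, which binds leukocyte integrins, was at 4.07 times, the monocyte chemokine CCL2 at 5.46 times and CFLAR, an inhibitor of death-receptor signalling, at 3.31 times, with adjusted p of 0.164, 0.222 and 0.222. The 2 targets with lower means, named after their values were seen, were the stress-response gene GADD45B, with a log2 difference of -0.25 (SE 0.30), and the gelatinase MMP9, with one of -0.15 (SE 0.33).

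**Figure D4:**
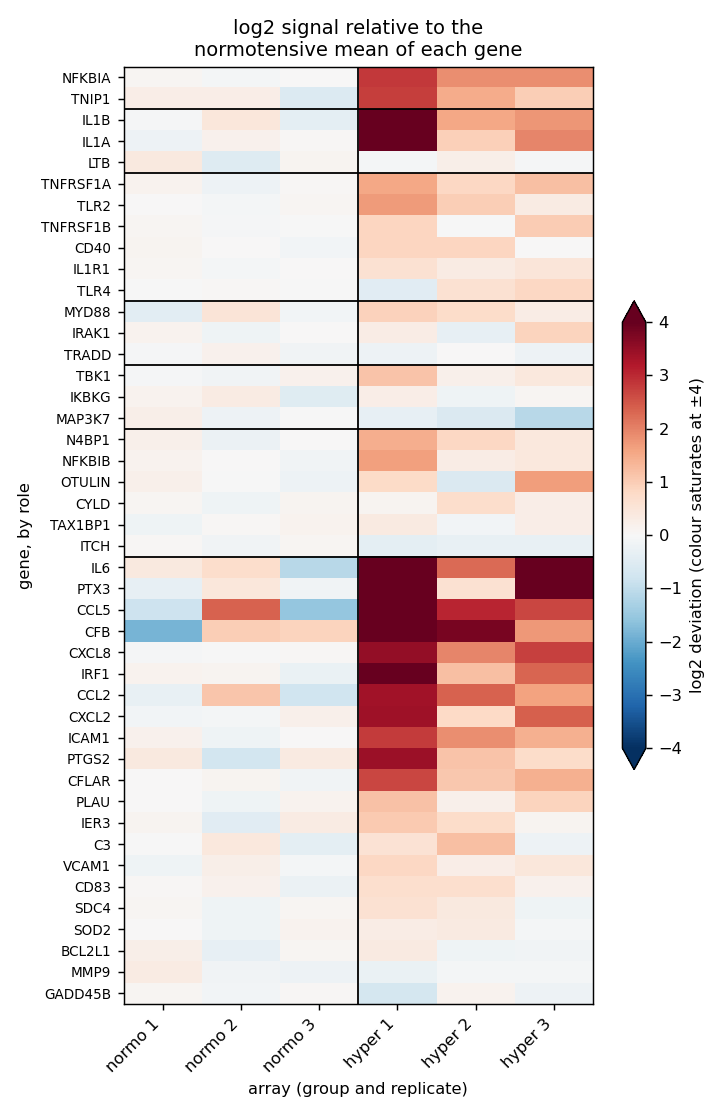
Log2 signal of each gene on each of the 6 arrays relative to its normotensive mean (colour, saturating at 4 either way), with genes in rows by role and the 2 member inhibitors at the top. On hypertensive replicates 1, 2 and 3 NFKBIA is at 2.84, 1.85 and 1.86 and TNIP1 at 2.77, 1.47 and 1.00, and hypertensive replicate 1 is the highest hypertensive array for 22 of the 23 further genes that are higher with groups that do not overlap.

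The genes whose log2 signal followed each member most closely over the 6 arrays were found among 5269 genes by Pearson correlation. All 6 points come from the same samples and fall into 2 pressure groups, so any gene with a clear shift scores high, and the values describe likeness only. For NFKBIA they were MARCH3, a membrane-bound ubiquitin ligase, at 0.995, XAF1, an interferon-induced apoptosis factor, at 0.990, and ABCA1, a cholesterol exporter, at 0.990 (n = 6 arrays). For TNIP1 they were GPBP1L1 at 0.998, TFIP11, a splicing factor, at 0.991, and the zinc-finger gene ZNF7 at 0.986. Above 0.95 lay 54 genes for NFKBIA and 68 for TNIP1, and the 2 members correlated at 0.929 with each other. MARCH3 was at 9.21 times the normotensive signal, whereas GPBP1L1 was at 1.61 times, so likeness of shape did not mean likeness of size.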

How the data were processed

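Total RNA of 70 ng per sample was amplified in repeated rounds of in vitro transcription, and 10 µg of labelled cRNA went onto 1 Affymetrix Porcine Genome Array per sample, per the labels' protocols. The authors deposited a linear signal intensity per probe set and array, made with GCOS and MAS5 per the submitters' processing notes (versions not given in the sources used here). Its 2% trimmed mean was 500.11 to 500.13 on each array, so a change shared by most transcripts would not be seen. Of 24123 probe sets, 124 controls were left out. Of the rest 10069 had 1 gene symbol in the platform annotation, 198 several and 13732 none. Only those with 1 symbol were matched to members, lists and markers. Intensities were taken to log2 without a pseudocount. Probe sets at or above the 40th percentile of mean log2 intensity, a signal of 48.5, were kept (14399), and the brightest kept probe set stood for a gene (5271 genes). The test was limma 3.58.1 under R 4.3.3 (lmFit and eBayes with trend, 2-sided, Benjamini-Hochberg over all kept probe sets, threshold 0.05). It was tested on simulated data with independent noise of equal spread in both groups. NFKBIA and TNIP1 had unequal SDs in the 2 groups here, a case which that run did not cover. An exact permutation test of 3 against 3 cannot go below 0.1 and was not used. The number of arrays limits the precision. Members and lists were chosen with earlier results of these data known. Genes named were all members, the up to 4 of smallest p in each list by role, the 3 most like each member, marker genes and those said to be named later. Alternatives were quantile normalization, a median shift, a replicate block, array weights, no trend, no filter or the 60th percentile, pseudocounts of 16 and 64, the mean of probe sets and each array left out. The controls GAPDH and ACTB had log2 differences of 0.11 and 0.32 (limma adjusted p = 0.705 and 0.479).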

Additional observations from a re-analysis of the deposited data

How the results depend on the processing

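NFKBIA and TNIP1 had higher values at hypertensive pressure in 17 of 17 alternatives each, with adjusted p by limma of 0.000272 to 0.525 and 0.0220 to 0.588. The array weights were 0.289, 0.195 and 2.38 for hypertensive replicates 1, 2 and 3 and 6.96, 0.931 and 1.15 for the normotensive ones. With them the log2 differences were 1.90 and 1.04, and 2 of 2 member genes passed the threshold. So did 21 of the 42 pathway genes, and 2431 higher and 3208 lower of all 14399 probe sets. With 1 array left out, the log2 differences were 1.86 to 2.35 for NFKBIA and 1.24 to 2.12 for TNIP1. The numbers past the threshold were then 0 to 2 of 2 member genes and 0 to 16 of 42 pathway genes. Of all 14399 probe sets 0 to 1485 passed as higher and 0 to 2020 as lower. All of these calls came without hypertensive replicate 2, except 1 higher probe set without normotensive replicate 2. Without replicate 2 of both groups NFKBIA was at 2.31. Then 1 of 2 member genes, 14 of 42 pathway genes, and 863 higher and 1102 lower of all 14399 probe sets passed. The cause was not tested. Pathway genes with non-overlapping lower groups numbered 1 with quantile normalization, 0 with a median shift and 1 with the mean of probe sets, in place of ITCH and MAP3K7. With the replicate block the log2 differences were the same, 2.18 and 1.75, at limma adjusted p of 0.0858 and 0.141. Their SEs were 0.25 and 0.34, against 0.28 and 0.48 without the block. Deviations from the group means correlated at 0.0593, 0.0720 and 0.226 between same-numbered samples and at -0.137 to 0.0410 between the others. For each hypertensive sample the same-numbered normotensive one had the highest value. Whether the numbers mark pairs is not stated in the labels and was not tested, and the main fit did not use them. The contrast of inhibitors with subunits had no value in any setting that kept the filter. Without the filter it was 1.89, resting on NFKB1 signals below the filter level. Signal over background, not given by the deposited values, limits what can be said of NFKB1 and of the dim TNIP1 probe sets.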

Other observations

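Among all 489 genes that were higher at hypertensive pressure with groups that did not overlap, hypertensive replicate 1 was the highest array in 75.9%, and replicate 2 was the lowest hypertensive array in 64.4%. For the 23 such NF-kB pathway genes the shares were 95.7% and 60.9%, and the 2 sets of shares were not compared by a test. In both sets replicate 2 was the lowest hypertensive array more often than replicate 3, though not for every gene. Replicate 3 was the lowest hypertensive array in 8 of the 23 pathway genes (34.8%) and replicate 2 in 14. Among all 489 genes replicate 3 was the lowest in 28.4%.

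Some targets named after their values were seen differed far more between hypertensive arrays than NFKBIA did. PTX3, a soluble pattern-recognition protein, read 107, 187 and 124 in the normotensive samples and 11744, 206 and 8420 in the hypertensive ones, so hypertensive replicate 2 lay next to the normotensive range while NFKBIA on the same array was 8643. The fold of PTX3 was 20.1 with all arrays and 9.71, 73.4 and 11.5 without hypertensive replicates 1, 2 and 3 in turn, and its log2 difference was 4.33 on the brightest probe set and 3.16 with the mean of its kept probe sets. The transcription factor IRF1 read 5788, 602 and 1305 on the hypertensive arrays and 220 to 287 on the normotensive arrays. Of 42 pathway genes, the fold of 10 moved by over 1.5 times when 1 array was left out, in 8 of them without hypertensive replicate 1 and in 7 without replicate 2.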
